A study of Petunia x hybrida with 22 samples.

Results

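H3K36me3, the trimethyl mark on lysine 36 of histone H3, was followed in the petunia corolla between 7AM and 7PM. The samples labelled H3K36me3 ChIP gave 4 libraries, replicates 1 and 3 at each time, and 4 deposited lists of islands, that is, of intervals in which the mark was lower or higher at 7PM than at 7AM. These lists held 25251 of the 125384 islands of the whole series, which covers 4 histone marks. Chromatin came from corollas of Petunia × hybrida cultivar Mitchell, from plants kept under glass on a cycle of 14 h light to 10 h dark (on at 6AM, off at 8PM), and crosslinked with 1% formaldehyde. The corolla is a tissue of several cell types, so less mark per cell and fewer cells with the mark cannot be told apart. The lists carry no gene names, and the tissue label was not tested against marker genes.

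H3K36me3 is written by SET-domain methyltransferases that travel with elongating RNA polymerase, and it lies over the bodies of transcribed genes. H3K4me3, by contrast, sits around their start sites, and the acetyl marks H3K9ac and H3K27ac lie on active promoters. In Arabidopsis, H3K36 methylation is known for its part in flowering-time control. Petals of this petunia cultivar release scent in the evening and at night.

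The morning and evening library totals of replicate 1 were 43918569 and 39485141 reads, those of replicate 3 were 32431600 and 26643442. In these libraries 3 reads correspond to between 0.0683 and 0.113 CPM (counts brought to a common library size of 1000000). In the authors' deposited lists each island changed at least 2-fold, with a false discovery rate of at most 0.00432. Steady places are therefore not in the lists, and a share of all H3K36me3 islands that changed cannot be given.

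Lower islands were longer and denser in reads than higher ones in both replicate pairs. In replicate 1 the median length was 1400 bp for the 3702 lower islands and 1000 bp for the 4021 higher ones. In replicate 3 it was 3800 bp for the 11648 lower islands and again 1000 bp for the 5880 higher ones. The lists of higher islands were thus alike in length in the 2 pairs, and the lists of lower islands were not. Of the higher islands, 62.5% in replicate 1 and 62.7% in replicate 3 were at most 1 kb long. Of the lower islands this share was 37.6% and 12.3%. The longest higher island covered 7.0 kb in replicate 1 and 5.0 kb in replicate 3. Lower islands of 10 kb or more numbered 21 in replicate 1 and 1154 in replicate 3. These medians were not tested.

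The replicates differed more in the bases covered by lower islands than in the number of these islands. Lower islands covered 7.82 Mb in replicate 1 and 57.4 Mb in replicate 3, a ratio of 7.34 between replicates. Higher islands covered 4.23 Mb and 6.06 Mb, a ratio of 1.43. The lower islands of replicate 3 held 15.1% of all reads of its 7AM library and 6.45% of those of its 7PM library. The lower islands of replicate 1 held 2.29% and 1.03%, and the higher islands of either replicate held less than 1% of any library (replicate 1, 0.285% of the morning and 0.647% of the evening library; replicate 3, 0.368% and 0.884%). The replicate 3 libraries were the shallower ones, and their list was the longer one. Why the replicates differed was not tested.

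**Figure D1:**
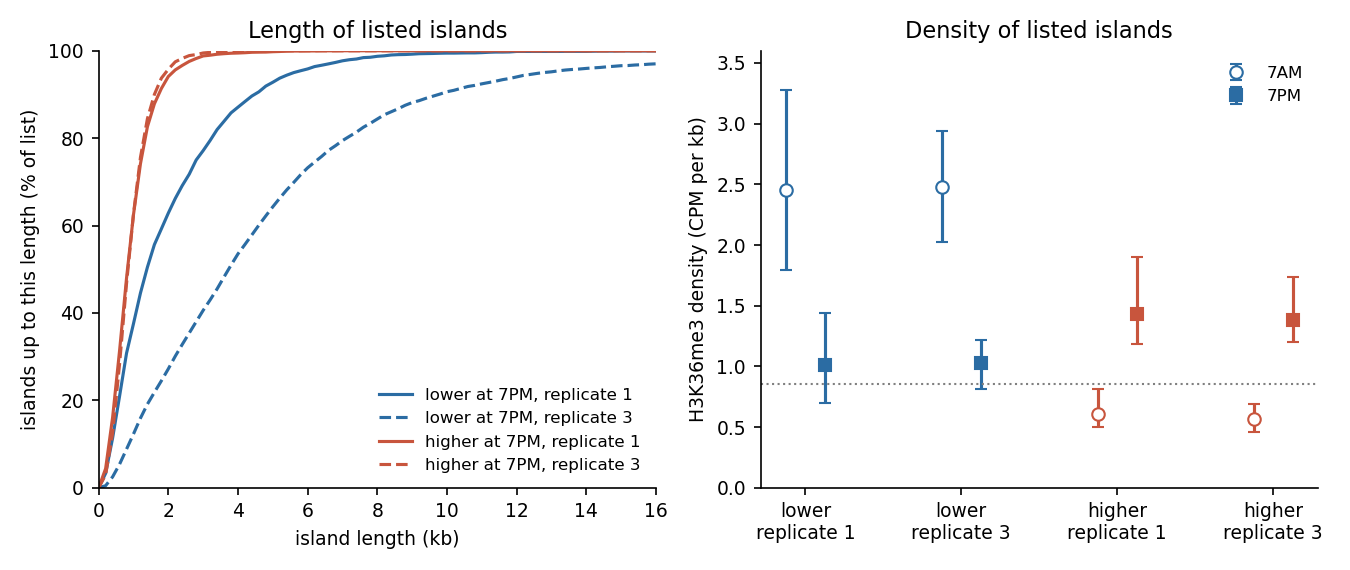
Left, cumulative share of islands (%) up to each length (kb) in the 4 lists; right, median H3K36me3 density (CPM per kb) at 7AM (open circles) and 7PM (filled squares), with bars from the lower to the upper quartile over islands; the dotted line is the density of reads spread evenly over the scaffolds, at most 0.854 CPM per kb. Both red curves lie together, the blue curve of replicate 3 reaches the longest islands, and higher islands start below the dotted line at 7AM.

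Densities were close between the replicates. In replicate 1, lower islands had a median of 2.46 CPM per kb in the morning and 1.01 in the evening; in replicate 3 these medians were 2.48 and 1.03. Higher islands of replicate 1 had 0.607 CPM per kb in the morning and 1.44 in the evening, and those of replicate 3 had 0.565 and 1.38. In the library where each was stronger, lower islands were thus 1.71 times as dense as higher ones in replicate 1 and 1.79 times in replicate 3. The scaffolds named in any list of the series extend over at least 1170 Mb, so reads spread evenly over them would give at most 0.854 CPM per kb. The morning median of the higher islands lay below that value in both replicates, and the evening median of the lower islands lay above it.

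Most listed changes lay not far beyond the 2-fold cut of the lists, which bounds the medians from below in both directions. The median log2 fold (7PM over 7AM, from the CPM of an island) was −1.19 for lower and 1.18 for higher islands in replicate 1, and −1.25 and 1.24 in replicate 3. More than 4-fold changes were found in 156 lower islands (4.21%) and 53 higher islands (1.32%) of replicate 1, and in 375 (3.22%) and 248 (4.22%) of replicate 3. Longer islands had the smaller folds: the median of lower islands in replicate 3 was −1.50 up to 1 kb and −1.16 over 10 kb, and in replicate 1 it was −1.36 and −1.04. Islands with fewer reads must differ more to be listed, so this order was not tested apart from depth. Of the higher islands, 45.9% in replicate 1 and 80.6% in replicate 3 had fewer than 50 reads in their stronger library, against 17.3% and 7.43% of the lower islands.

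Lower islands were found again in the other replicate at a larger share than higher ones. Of the lower islands of replicate 1, 2427 (65.6%) overlapped a lower island of replicate 3, and of those of replicate 3, 2445 (21.0%) overlapped one of replicate 1. Of the higher islands, 146 were found again, 3.63% of the replicate 1 list and 2.48% of the replicate 3 list. In bases, lower islands shared 5.93 Mb, which is 75.9% of replicate 1 and 10.3% of replicate 3. Higher islands shared 0.0932 Mb, or 2.20% and 1.54%. The lists to be met were unequal, with 57.4 Mb of lower and 6.06 Mb of higher islands in replicate 3. In replicate 1 they covered 7.82 and 4.23 Mb. Longer islands also overlap more easily, and the share to be met without any relation was not computed.

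Among lower islands of replicate 1 this share rose with the number of reads. It was 3.39% of 59 islands with under 25 reads in the 7AM library, 16.3% of 582 with 25 to under 50, 48.5% of 742 with 50 to under 100, 69.8% of 785 with 100 to under 200 and 92.7% of 1534 with 200 or more. By length it went from 40.04% of islands up to 1 kb to 95.9% of those of 4200 to 10000 bp and 20 of 20 above that. A longer island meets an overlap of 1 bp more easily, and neither order was tested apart from length. Higher islands of replicate 1 showed no such order, with 3.53%, 3.58%, 3.83%, 3.65% and 0% (0 of 70) in the same read classes. Seen from replicate 3, the lower islands behaved otherwise: 36.2%, 32.4%, 36.9%, 34.4% and 13.8% were found in replicate 1. The last class holds 7637 islands, more than the whole lower list of replicate 1, and long islands of over 10 kb were found again in 4.12% of cases.

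**Figure D2:**
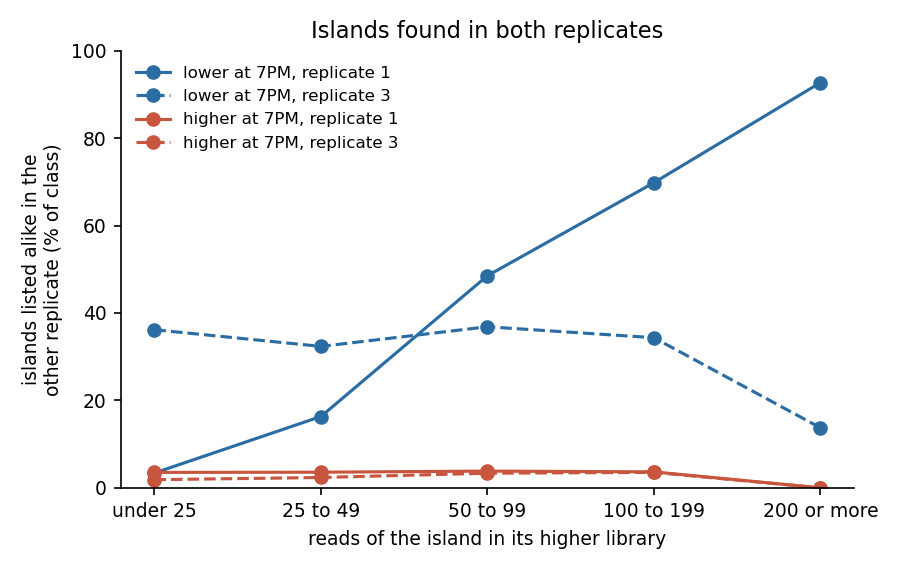
Share of islands (%) overlapped by an island with the same direction in the other replicate, by number of reads in the stronger library; solid lines are replicate 1, dashed lines replicate 3, blue is lower and red higher at 7PM. The solid blue line climbs from 3.39% to 92.7%, and both red lines stay under 4%.

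Lower islands found in both replicates differed in profile from those found in one. In replicate 1 the 2427 repeated islands had a median of 2200 bp, 258 reads at 7AM and 2.85 CPM per kb, and the 1275 others 800 bp, 57 reads and 1.73 CPM per kb. Their median log2 folds were −1.16 and −1.28, so the repeated islands were the stronger ones in signal and not in fold. In replicate 3 the repeated islands were the shorter ones, with 2200 bp and a median log2 fold of −1.44, against 4400 bp and −1.21 for the 9203 that replicate 1 did not list. The 146 repeated higher islands had a median of 800 bp in either replicate, against 1000 bp for the others.

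Lists of opposite direction rarely met, but so did the lists of higher islands (146 of 4021 islands of replicate 1). Only 3 places were lower in one replicate and higher in the other. On Peaxi162Scf00178 at 493801 to 494600 the morning and evening libraries held 21 and 8 reads in replicate 1, against 13 and 31 in replicate 3. On Peaxi162Scf00545 at 90401 to 91800 they went from 12 to 31 and from 43 to 17, and on Peaxi162Scf00990 at 153801 to 154600 from 27 to 50 and from 38 to 14. All 3 are short and have at most 50 reads in any library. Higher islands of replicate 1 lay a median of 65.6 kb from the nearest lower island of replicate 3 on their scaffold, and 4.31% lay within 5 kb of one. From the nearest higher island of replicate 3 they lay a median of 59.2 kb, with 10.5% within 5 kb. Those lists covered 57.4 Mb (lower) and 6.06 Mb (higher) of at least 1170 Mb. The numbers to be met without any relation were not computed.

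Overlapping islands of the 2 replicates were merged, which gave 22648 regions, of which 2567 were listed in both. On their summed read counts H3K36me3 fell at 2418 regions, 94.2% of those tested, and rose at 146, or 5.69% (edgeR's quasi-likelihood F-test blocked on replicate, Benjamini-Hochberg adjusted p under 0.05). Every region with one direction in both pairs was called, and the 3 opposite ones did not pass (edgeR adjusted p of 0.361 to 0.944), though all 3 did with TMM scaling. Since each region had already been selected as changed in both pairs, a shared direction was fixed by the selection, and the test adds no independent evidence of change or of agreement. Without the 7AM library of replicate 1 the edgeR test, then with 1 morning library and no block, called 13 regions as falling and 0 as rising (786 and 44 by unadjusted p under 0.05), and without that of replicate 3 it called 36 and 0 (1591 and 56 unadjusted). Falls and rises are relative to the library totals: with TMM scaling, which centres these regions and shifted log2 folds by 1.26 on average, the calls were 81 lower and 155 higher (34.3% lower in place of 94.3%), and with median-of-ratios scaling, which moved them by 1.27, 57 and 150 (27.5%).

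The falling regions had a median log2 fold of −1.16 in replicate 1 (quartiles −1.32 and −1.07) and −1.44 in replicate 3 (−1.67 and −1.26). In 2009 of the 2418 (83.1%) the change was larger in replicate 3. Rising regions had 1.18 in replicate 1 and 1.22 in replicate 3, and 80 of the 146 (54.8%) changed more in replicate 3. Across falling regions the folds of the pairs were weakly related (Pearson's r 0.42 and Spearman's rho 0.32 over regions, which share libraries, are cut off at 2-fold and are not independent). Across rising regions r was 0.018. The median density of the falling regions went from 2.85 to 1.25 CPM per kb between the libraries of replicate 1, and from 2.38 to 0.863 between those of replicate 3. The 2 morning values thus lay closer together, as a ratio, than the 2 evening values.

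**Figure D3:**
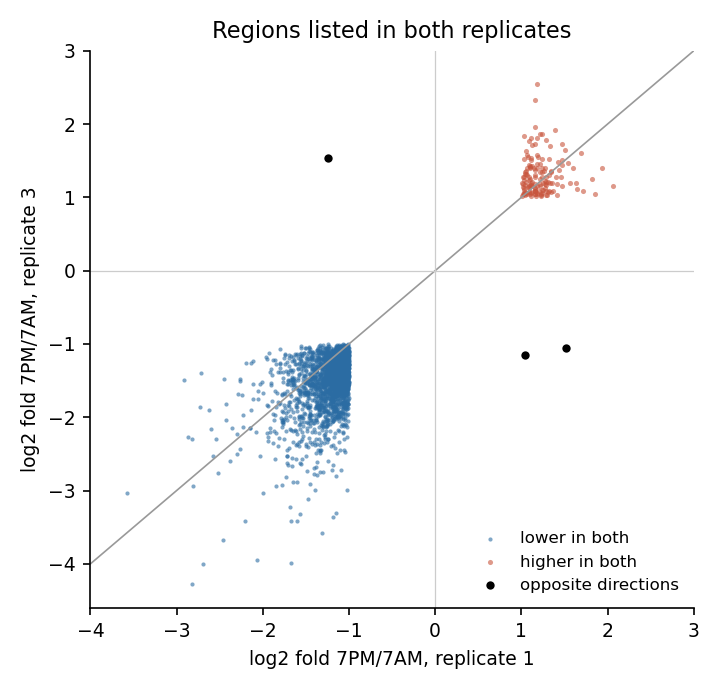
Log2 fold of H3K36me3 (7PM over 7AM, scaled by library totals) in replicate 1 and replicate 3 for the regions listed in both; 1 falling region with 0 reads at 7PM in replicate 3 is left out, and the diagonal marks equal folds. The 2418 falling regions (blue) lie mostly below the diagonal, the 146 rising ones (red) on both sides of it, and 3 (black) have opposite directions.

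For part of the regions listed in both replicates, the borders of the islands were close in the 2 pairs. Of the falling regions 673 (27.8%) had identical outer borders in both replicates, and in 1370 (56.7%) both borders lay within 1 window of 200 bp, the step of the deposited island lengths. For rising regions it was 23 (15.8%) and 69 (47.3%). In 806 falling regions (33.3%) the replicate 1 part lay inside a larger replicate 3 part, and in 650 (26.9%) it was the reverse. One island of each replicate made up the region in 2383 of the 2418 falling regions and in all 146 rising ones.

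The falling regions with the highest read levels were long ones. On Peaxi162Scf00084 at 461001 to 475600, replicate 1 had 3239 reads in the morning and 1428 in the evening, and replicate 3 had 1968 and 608. Both evening values lie below both morning values, also as CPM (73.8 and 60.7 at 7AM, 36.2 and 22.8 at 7PM), and the log2 fold was −1.22 ± 0.27 (SD, n = 2 replicate pairs). On Peaxi162Scf00371 at 349601 to 363000 reads went from 3227 to 1283 and from 2002 to 630 (−1.28 ± 0.15). On Peaxi162Scf00045 at 1254601 to 1273800 they went from 3097 to 1388 and from 1806 to 542 (−1.23 ± 0.32). On Peaxi162Scf00332 at 119601 to 134200 the mark fell from 60.6 to 28.5 CPM in replicate 1 and from 51.2 to 18.8 CPM in replicate 3. On Peaxi162Scf01006 at 233201 to 248200 it fell from 63.5 to 27.2 CPM and from 45.0 to 14.2 CPM, and H3K4me3 and H3K27ac were also lower in both of their replicates there. Adjusted p-values from edgeR were 2.84e-08 to 7.9e-06 for the 5. None of the 5 passed under TMM or median-of-ratios scaling, where the log2 folds lay between −0.14 and 0.083, so these falls have the size of the general shift of the listed regions.

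The falls steepest in both replicates, taken from regions whose stronger library reached 100 reads in each pair, were shorter. On Peaxi162Scf00073 at 276601 to 278000 136 morning reads became 30 in replicate 1, and 112 became 16 in replicate 3 (log2 fold −2.28 ± 0.35). On Peaxi162Scf00216 at 896601 to 897600 they went from 136 to 32 and from 111 to 19 (−2.10 ± 0.23). Both regions had the same borders in the 2 pairs, so that the counts cover the same bases. On Peaxi162Scf00382 at 837601 to 839800 reads went from 251 to 60 and from 156 to 29, and on Peaxi162Scf00207 at 367401 to 369800 from 316 to 78 and from 195 to 35. At both, H3K4me3 was lower in both of its replicates as well. The fifth was on Peaxi162Scf01530 at 117201 to 119200, where 129 reads became 32 and 105 became 22. All 5 passed under each scaling, with edgeR adjusted p between 1.77e-23 and 3.5e-19 by library totals and log2 folds of −0.64 to −0.96 under TMM. With DESeq2 the adjusted p was 2.56e-12 to 7.1e-07. These 5 were picked for their large change in these same counts, so passing adds no independent evidence of change.

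Beyond 4-fold in both replicates there were 25 of the 2418 falling regions, on 24 scaffolds, and 0 of the 146 rising ones. The 25 were short, with a median of 800 bp (200 to 1800), and their median reads fell from 64 to 11 (replicate 1) and from 43 to 7 (replicate 3). Beyond 3-fold in both there were 134 of the 2418 falling and 1 of the 146 rising. With so few rising regions these counts do not set the directions apart, and they were not tested.

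The 3 longest falling regions show how the pairs can cover different lengths. On Peaxi162Scf00006 at 1603201 to 1631400 a single replicate 3 island of 28200 bp held 1895 morning and 759 evening reads, and replicate 1 listed 2800 bp of it, with 446 and 187 reads. On Peaxi162Scf00363 at 268401 to 295600 the listed lengths were 4200 bp in replicate 1 and 27200 bp in replicate 3, with 633 and 275 reads and 2944 and 1000 reads. Without the block their edgeR adjusted p was 0.596 and 0.513, against 7.25e-06 and 6.54e-06 with it, and under TMM their log2 folds were 0.28, called as a rise (edgeR adjusted p = 0.0124), and 0.13, not called. The third, on Peaxi162Scf00071 at 773601 to 793200, was alike in both pairs, with 18800 and 19200 bp and a fall from 55.9 to 27 CPM and from 44.0 to 18.8 CPM; its TMM log2 fold was 0.14.

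Rising regions reached lower levels. The one with most reads was on Peaxi162Scf00055 at 1292801 to 1295800, where 108 morning reads became 196 in replicate 1, and 76 became 126 in replicate 3 (2.46 to 4.96 CPM and 2.34 to 4.73 CPM). Both evening values were above both morning values, by a log2 fold of 1.01 in each pair, which is at the lists' threshold, and of 2.27 under TMM. On Peaxi162Scf00932 at 531201 to 532600 reads went from 71 to 138 and from 72 to 120 (1.07 ± 0.065), and on Peaxi162Scf00465 at 91601 to 94000 from 70 to 127 and from 54 to 102 (1.11 ± 0.13). Those on Peaxi162Scf00415 at 909801 to 911600 and Peaxi162Scf01385 at 53401 to 54200 rose from 1.25 to 2.66 and from 1.37 to 2.91 CPM in replicate 1, and from 1.76 to 3.83 and from 1.45 to 3.04 CPM in replicate 3. For the 5, edgeR gave adjusted p-values of 2.26e-09 to 2.43e-08. For the 5 rises that were steepest in both replicates, with at least 50 reads in the stronger library, log2 folds were 1.26 to 1.32 and adjusted p between 8.77e-11 and 2.81e-08. These too were picked for their change in the same counts, and DESeq2 gave adjusted p of 0.000819 to 0.00395. Under TMM the log2 folds of these 10 rising regions were 2.27 to 2.59, larger by the general shift.

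The longest rising regions spanned 3200 to 3800 bp. On Peaxi162Scf01233 at 14001 to 17800 replicate 1 went from 101 to 184 reads over 3800 bp, and replicate 3 listed 400 bp with 14 and 26 reads. On Peaxi162Scf00121 at 1681201 to 1684400 replicate 1 went from 67 to 133 reads and replicate 3 from 12 to 26. Without the block neither passed the edgeR test (adjusted p = 0.563 and 0.158, against 4.21e-08 and 1.1e-09 with it). On Peaxi162Scf00846 at 123201 to 126600 reads went from 26 to 53 and from 43 to 73. Under TMM the log2 folds of these 3 were 2.22 to 2.41.

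**Figure D4:**
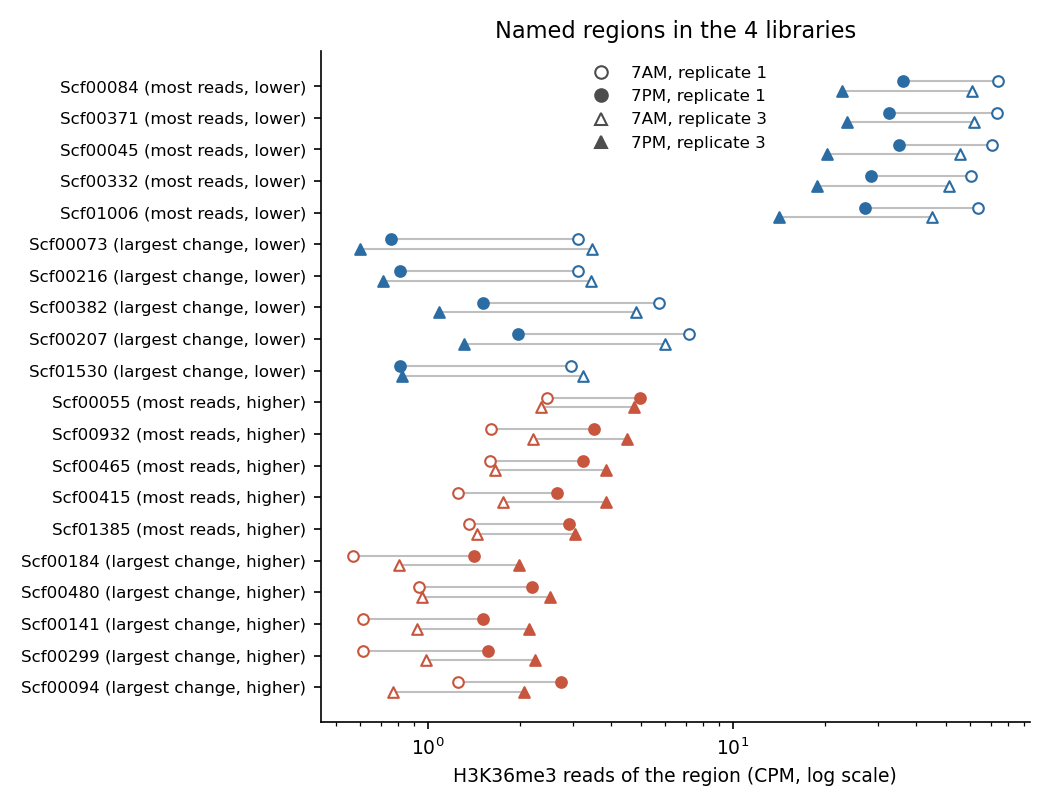
H3K36me3 reads (CPM, log scale) in the 4 libraries for the 5 falling and 5 rising regions with most reads and the 5 of each direction with the steepest change in both replicates, labelled by scaffold; open symbols are 7AM, filled 7PM, circles replicate 1 and triangles replicate 3. The 5 strongest falling regions drop from 45.0 to 73.8 CPM at 7AM to 14.2 to 36.2 CPM at 7PM relative to library totals (not so under TMM), and rising regions stay under 5 CPM.

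Falling regions lay on 792 scaffolds and rising ones on 136. The 10 scaffolds with most falling regions held 248 of them (10.3%), the median per scaffold was 2, and 325 scaffolds had 1. Peaxi162Scf00016 had the most, with 32 regions that together covered 81.4 kb of the stretch from 3201 to 3429000. Peaxi162Scf00207 had 31 over a shorter listed span, which gives 18.2 per Mb against 9.08 on Peaxi162Scf00016, and Peaxi162Scf00003 had 27 (4.92 per Mb; 3 scaffolds had as many). Rising regions were mostly alone: 127 of the 136 scaffolds had 1, and Peaxi162Scf00011 had the most with 3. Peaxi162Scf00019 and Peaxi162Scf00055 were among the 8 scaffolds with 2.

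Neighbouring falling regions were separated by a median of 105 kb, and 99 of 1626 gaps (6.09%) were at most 5 kb. In the single lists, the island after a lower one was lower too in 64.3% of cases in replicate 1 and 77.5% in replicate 3, where lower islands made up 47.9% and 66.5% of all. After a higher island it was higher in 65.6% and 53.3%, against 52.1% and 33.6% of all. On the 800 scaffolds with a listed span of 500 kb or more, lower islands of replicate 3 covered a median of 3.81% of the span and at most 27.5%. For the other 3 lists the median was 0.322% to 0.476%, and 25 of the 800 scaffolds had no lower island of replicate 3 against 119 for replicate 1.

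The other marks were then read at the falling H3K36me3 regions. H3K4me3 was lower in both of its replicates at 508 of the 2418 (21.0%) and higher in both at 0. H3K27ac was lower in both at 139 (5.75%) and higher in both at 13 (0.538%), and H3K9ac was lower at 47 (1.94%) and higher at 12 (0.496%). These counts follow lists of unequal size. In the whole series 1657 H3K4me3 regions were lower in both and 186 higher, of which 509 (30.7%) and 0 met a falling H3K36me3 region. For H3K27ac they were 139 of 3680 lower regions (3.78%) and 13 of 425 higher ones (3.06%), and for H3K9ac 46 of 1352 (3.40%) and 12 of 404 (2.97%). Among regions listed in both replicates, the shares of the acetyl marks were thus close in the 2 directions. The difference between these shares was not tested. For H3K9ac the single replicates differed in direction. In replicate 1 its lower islands met 947 falling H3K36me3 regions and its higher islands 20, and in replicate 2 they met 42 and 245. At 993 falling regions (41.1%) H3K4me3 was in none of its lists, and for H3K27ac it was 1881 (77.8%), which does not say that these marks were absent or steady there. At 1830 regions (75.7%) no other mark was lower in both replicates, and at 19 all 3 were. Of the 146 rising regions, 0 overlapped a place where H3K4me3 was higher in both, and 1 each did so for H3K9ac and H3K27ac.

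Where H3K4me3 and H3K36me3 fell together their regions had nearly the same extent. In 446 of 509 overlapping pairs (87.6%) each region covered at least 50% of the other, in 331 (65.0%) both borders lay within 400 bp, and in 118 they were identical. For H3K27ac 62 of 140 pairs (44.3%) covered at least 50% of each other and 19 (13.6%) had such close borders, and for H3K9ac 18 of 47 (38.3%) and 7 (14.9%). Over H3K36me3 regions of 2 kb or more, the centre of the H3K4me3 region lay at a median of 0.43 of the length from the nearer end, with 0.5 being the middle, and in 85.8% of 317 overlaps it was nearer to the middle than to that end. The centres of H3K27ac regions lay at a median of 0.15 and those of H3K9ac at 0.13, with 35.6% of 101 and 34.3% of 35 nearer to the middle. These positions were not tested between marks, and the lists give no strand. Regions with nearly the same borders have nearly the same centre, so the H3K4me3 positions restate the shared extent. Median lengths in these overlaps were 2800 bp for H3K4me3 over H3K36me3 regions of 3200 bp. For H3K27ac they were 3800 over 3200 bp, and for H3K9ac 4800 over 3400 bp. The positions were not tested apart from these lengths.

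**Figure D5:**
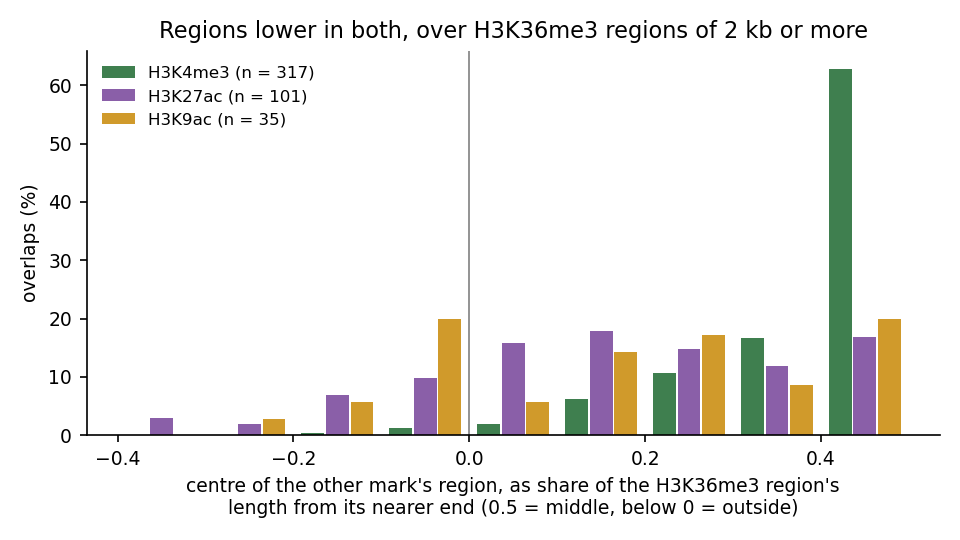
Position of regions lower in both replicates of H3K4me3, H3K27ac or H3K9ac on falling H3K36me3 regions of 2 kb or more, as the distance of the centre from the nearer end in shares of the H3K36me3 length; bars are percent of overlaps in bins of 0.1, and 2 H3K9ac and 1 H3K27ac overlaps with centres further out than −0.4 are left out. H3K4me3 centres gather at the middle (62.8% in the last bin), those of the acetyl marks are spread and partly outside.

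Falling regions with falling H3K4me3 had a median H3K36me3 log2 fold of −1.23 in replicate 1 and −1.52 in replicate 3, against −1.11 and −1.38 where H3K4me3 was not listed. Their median lengths were 2400 and 2800 bp and their 7AM densities 2.71 and 2.94 CPM per kb in replicate 1 and 2.31 and 2.43 in replicate 3. The 917 regions with H3K4me3 listed otherwise are left out. The same contrast in replicate 1 was −1.185 against −1.14 for H3K9ac and −1.183 against −1.16 for H3K27ac. In replicate 3 it was −1.512 against −1.436 and −1.463 against −1.439. These differences were not tested, nor separated from length. The largest regions at which all 4 marks were lower in both replicates were on Peaxi162Scf01205 at 210201 to 217200 (H3K36me3 reads from 1129 to 498 and from 711 to 233), Peaxi162Scf00360 at 197001 to 202000 (873 to 314 and 545 to 136) and Peaxi162Scf00455 at 509001 to 514000 (508 to 203 and 361 to 118). Peaxi162Scf00016 at 88601 to 93400 (664 to 288 and 463 to 160) and Peaxi162Scf00045 at 2140801 to 2145400 (485 to 216 and 278 to 85) followed. The 5 were picked as lower in both pairs, so an evening CPM below the morning CPM was fixed by the selection. Their log2 folds ran from −1.15 ± 0.14 to −1.52 ± 0.28 (SD, n = 2 replicate pairs). The edgeR adjusted p was at most 4.38e-08, which adds no independent evidence of change. Under TMM their log2 folds were −0.22 to 0.13 and none passed.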

How the data were processed

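ChIP-seq islands of H3K36me3 in petunia corolla were analysed, from 1 7AM and 1 7PM library for each of replicates 1 and 3. The submitters' processing notes name cutadapt, Bowtie2 and SICER (version 1.1). Their settings, the genome build, duplicate removal and any use of the input are, in the sources used here, not given. Scaffold names are those of the files, and coordinates are written 1-based. Each list, without column names, holds the authors' read count and CPM of both libraries, and the authors' deposited fold and p-value with its FDR for the direction of the list. The authors' deposited fold adds 1 read to each count; the folds here are plain ratios of CPM. The values of 3 reads in CPM cover counting error only. The 6 input samples were not analysed here.

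Islands of the replicates that overlapped by 1 bp were merged, reads were summed per library, and edgeR 4.0.16 under R 4.3.3 was run on the 2567 regions found in both pairs, with library totals as library sizes and the replicate as a block, because each list compares a 7AM and a 7PM library of one number and sets its own borders. Deviations of same-numbered libraries from their group means correlated at 0.879 over regions, and at 0.469 over the 802 regions with equal covered length in both pairs. The regions were selected for a change of at least 2-fold in each pair, mostly in one direction, which by itself ties the libraries of a pair together. How much of the correlation comes from this was not computed, so it is no independent ground for the block. The merging and the test were tried on simulated data. For the test, a minority of simulated regions changed, equally in both directions. The real regions were all selected as changed and mostly fell, so that trial does not show how the test behaves on them. Members, naming rules and classes were chosen with earlier results of these data known. Named regions are, 1 per scaffold, the 5 of each direction with most CPM, the 5 with the largest change in the weaker replicate, the 3 longest, all with opposite directions, the 5 longest lower in all marks, the 5 with most H3K27ac reads where H3K27ac was higher, and the 3 scaffolds with most regions of each direction. The rule takes the largest change from regions with at least 100 (lower) or 50 (higher) reads. The alternatives tried were scaling by TMM or by median of ratios, DESeq2 (1.42.0), no block, 50 reads, 50% overlap, an FDR of 1e-05, 2.5-fold and each library left out.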

Additional observations from a re-analysis of the deposited data

Results flagged for a closer look

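At 13 regions H3K36me3 was listed as lower and H3K27ac as higher at 7PM in both replicates of each. The opposite directions of the marks in all pairs are how these regions were picked, and the difference itself was not tested. The 13 are 3.06% of the 425 H3K27ac regions that were higher in both, against 3.78% of the 3680 lower ones that met falling H3K36me3. On Peaxi162Scf00452 at 397601 to 403800 H3K36me3 reads went from 632 to 270 in replicate 1 and from 353 to 87 in replicate 3, and H3K27ac reads from 78 to 231 in replicate 1 and from 45 to 180 in replicate 2, over 396001 to 401600. On Peaxi162Scf00304 at 804401 to 810200 H3K36me3 went from 862 to 373 and from 609 to 174 reads and H3K27ac from 63 to 268 and from 29 to 139, with the H3K27ac region reaching from 808201 to 813200. On Peaxi162Scf00058 at 2627001 to 2629200 H3K36me3 went from 175 to 55 and from 164 to 42 reads, and H3K27ac from 46 to 254 and from 26 to 152. On Peaxi162Scf00166 at 1261801 to 1262600 H3K36me3 went from 48 to 13 and from 42 to 9 reads and H3K27ac from 72 to 193 and from 28 to 141, and on Peaxi162Scf00286 at 435801 to 438400 from 275 to 118 and from 178 to 67, and from 85 to 216 and from 25 to 94. On Peaxi162Scf00286 the H3K27ac region reached from 431601 to 436200, so most of it lay outside the H3K36me3 region. The regions on Peaxi162Scf00452, Peaxi162Scf00058 and Peaxi162Scf00286 also had H3K9ac higher in both of its replicates, and the latter pair had H3K4me3 lower in both. Under TMM scaling the H3K36me3 log2 folds of the 5 were −0.55 to 0.16 and none passed.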

How the results depend on the processing

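The 2418 lower and 146 higher calls were 2417 and 144 with DESeq2 and 2378 and 143 with no replicate block. With 50% reciprocal overlap they were 2249 and 105. Lower calls were 81 under TMM and 57 under median-of-ratios scaling, and 479 with islands changed at least 2.5-fold, where fewer regions were tested. Higher calls were 31 with at least 50 reads, 79 at an FDR of 1e-05 and 14 at 2.5-fold, and the numbers of regions listed in both were the same at these settings (479 lower at 2.5-fold; 31, 79 and 14 higher). With each library left out, calls ranged from 13 to 2355 lower and from 0 to 127 higher in edgeR; the low values (13 and 0, 36 and 0; 786 and 44, 1591 and 56 by unadjusted p) come from leaving out the 7AM library of replicate 1 or 3, after which the lone morning library is assumed to vary like the others. A lone evening library is assumed to vary in the same way. The common coefficient of variation fitted by edgeR was 0.33 without either 7AM library and 0.24 without either 7PM library. The cause was not tested.

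With at least 50 reads, 90.4% of replicate 3 islands were lower, and in replicate 1, where higher islands were the majority, the share of lower ones went from 47.9% to 58.5% (50.8% at an FDR of 1e-05, 52.5% at 2.5-fold); median lengths of higher islands were 1200 bp (replicate 1) and 1600 bp (replicate 3), densities in the stronger library were 2.64 and 2.52 CPM per kb for lower islands and 1.37 for higher islands of replicate 1, and 1.175% and 3.81% of falling regions overlapped falling H3K9ac and H3K27ac. At an FDR of 1e-05, densities in replicate 1 were 2.505 (lower) and 1.39 (higher), higher islands of replicate 3 measured 1200 bp, and the H3K27ac overlap was 4.83%. At 2.5-fold, higher islands measured 800 bp in both replicates, with densities of 1.498 and 1.44, and lower islands had 2.125 and 2.60.

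Of the 39 named regions, 13 falls turned to a positive log2 fold under each scaling that centres the listed regions. Under TMM and median-of-ratios scaling the values were 0.074 and 0.083 on Peaxi162Scf00084, 0.00019 and 0.0082 on Peaxi162Scf00371, 0.071 and 0.080 on Peaxi162Scf00045 (1254601), 0.025 and 0.034 on Peaxi162Scf00332, 0.28 and 0.30 on Peaxi162Scf00006, 0.13 and 0.14 on Peaxi162Scf00363, 0.14 and 0.15 on Peaxi162Scf00071, 0.11 and 0.12 on Peaxi162Scf01205, 0.023 and 0.031 on Peaxi162Scf00455, 0.13 and 0.13 on Peaxi162Scf00016, 0.092 and 0.098 on Peaxi162Scf00045 (2140801), 0.020 and 0.028 on Peaxi162Scf00304, and 0.16 and 0.17 on Peaxi162Scf00286. Adding 1 read turned no named fold, and leaving out either pair turned none but those of the 3 opposite regions, each of which then follows the pair that is left. Without the block 4 named regions lost their call, as given above, and no other named region did.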

Other observations

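The single lists of the other marks met the 2418 falling H3K36me3 regions unevenly. Lower islands of H3K4me3 overlapped 971 of them (40.2%) in replicate 1 and 961 (39.7%) in replicate 2, so its 2 lists touched nearly equal shares. Lower islands of H3K9ac overlapped 947 (39.2%) in replicate 1 and 42 (1.74%) in replicate 2, where higher islands overlapped 245 (10.1%). These 2 lists of lower H3K9ac islands covered 38.8 Mb and 6.54 Mb. For H3K27ac the lower islands met 367 (15.2%) in replicate 1 and 204 (8.44%) in replicate 2. At the 146 rising H3K36me3 regions the list that met most was that of higher H3K4me3 islands of replicate 2, with 19 (13.01%), followed by higher H3K9ac islands of replicate 1 with 13 (8.90%).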
